A study of Mus musculus with 6 samples.

Results

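The liver takes up bile acids from portal blood, exports them into bile and holds their amount in check through nuclear receptors. The 10 genes examined here cover these steps: the uptake carriers Slc10a1, Slco1a1, Slco1a4 and Slco1b2, the canalicular exporters Abcb11 and Abcc2, the basolateral exporters Abcc3 and Slc51b, and the nuclear receptors Nr1h4 and Nr0b2. They were chosen by name from the 34745 genes of the table, and all 10 were found and had enough counts to be tested among 13892 genes. RNA-seq was performed on 6 liver tumors, with 3 tumors labelled WT, called Prmt3f/f in the title of the series, and 3 tumors of Prmt3LKO. Prmt3 encodes a protein arginine methyltransferase. Both genotypes carried floxed Prmt3 alleles, and Prmt3LKO mice also carried Cre under the albumin promoter, which acts in hepatocytes. Whether Prmt3 stayed intact in the other cells of a tumor was not measured here. All mice were male and were given diethylnitrosamine (DEN) at 25 mg/kg when 2 weeks old and repeated injections of 10% CCl4 at 0.5 ml/kg from 6 weeks of age, and tumors were taken at 26 weeks. Replicates are named here by the numbers in their labels, 7, 66 and 71 for Prmt3f/f and 92, 93 and 94 for Prmt3LKO. The labels do not state that each tumor came from a separate mouse, so p-values measure only the spread between these 6 samples.

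Bile acids are made from cholesterol in hepatocytes and circulate between liver and intestine. Slc10a1 (NTCP) takes up conjugated bile acids together with sodium at the sinusoidal side, and carriers of the Slco family take up bile acids and many other organic anions without sodium. Abcb11 (BSEP) pumps bile salts across the canalicular membrane, and Abcc2 (MRP2) exports conjugated bilirubin and other conjugates there. Abcc3 (MRP3) and the Slc51a-Slc51b dimer (OSTα and OSTβ) return bile acids and conjugates to blood. Nr1h4 (FXR) is the receptor that binds bile acids, and Nr0b2 (SHP), which lacks a DNA-binding domain, is induced by it and represses bile acid synthesis.

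Reference promoters are printed for 6 members: the 4 uptake carriers, all of which were low in tumors 7 and 93 as described below, and Abcc2 and Slc51b, which were not. Sequences are from RefSeq on GRCm38.p6, run from 250 bases before to 50 after the transcription start, and are written 5′ to 3′ on the strand of the gene. Capitals mark the hexamer AGGTCA, the core element of many nuclear receptors, read on either strand (TGACCT on the other). Slc10a1 is on the minus strand at chr12:80968030-80968329. Slco1a1 is on the minus strand at chr6:141946913-141947212, Slco1a4 on the minus strand at chr6:141856171-141856470, and Slco1b2 on the plus strand at chr6:141629268-141629567. Abcc2 is on the plus strand at chr19:43782058-43782357, and Slc51b on the minus strand at chr9:65422724-65423023.
Slc10a1: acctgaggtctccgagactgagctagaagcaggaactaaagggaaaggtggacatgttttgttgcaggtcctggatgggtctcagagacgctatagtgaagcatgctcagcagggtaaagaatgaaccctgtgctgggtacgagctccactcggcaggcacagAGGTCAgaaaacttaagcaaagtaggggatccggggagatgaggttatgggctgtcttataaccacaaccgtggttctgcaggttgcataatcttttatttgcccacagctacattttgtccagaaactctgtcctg
Slco1a1: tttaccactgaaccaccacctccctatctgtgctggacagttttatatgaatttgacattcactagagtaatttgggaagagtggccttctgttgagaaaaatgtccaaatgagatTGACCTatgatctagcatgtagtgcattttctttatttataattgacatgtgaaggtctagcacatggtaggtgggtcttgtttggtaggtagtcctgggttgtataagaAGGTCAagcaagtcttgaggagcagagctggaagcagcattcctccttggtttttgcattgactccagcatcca
Slco1a4: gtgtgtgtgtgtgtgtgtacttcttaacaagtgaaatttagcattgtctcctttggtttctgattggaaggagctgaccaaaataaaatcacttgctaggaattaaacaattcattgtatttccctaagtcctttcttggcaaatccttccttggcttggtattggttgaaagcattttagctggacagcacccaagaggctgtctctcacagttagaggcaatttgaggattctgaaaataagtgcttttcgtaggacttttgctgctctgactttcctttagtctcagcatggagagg
Slco1b2: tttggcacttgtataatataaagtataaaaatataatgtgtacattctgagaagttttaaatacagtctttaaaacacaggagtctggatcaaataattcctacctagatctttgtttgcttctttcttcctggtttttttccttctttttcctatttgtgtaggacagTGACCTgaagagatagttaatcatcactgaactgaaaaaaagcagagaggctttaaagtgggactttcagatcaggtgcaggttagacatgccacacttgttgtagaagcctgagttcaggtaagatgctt
Abcc2: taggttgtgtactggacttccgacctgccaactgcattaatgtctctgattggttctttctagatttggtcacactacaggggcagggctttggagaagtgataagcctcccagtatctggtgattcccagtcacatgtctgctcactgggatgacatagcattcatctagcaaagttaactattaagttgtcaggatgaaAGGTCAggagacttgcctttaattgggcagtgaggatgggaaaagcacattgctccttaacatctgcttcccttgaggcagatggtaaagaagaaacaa
Slc51b: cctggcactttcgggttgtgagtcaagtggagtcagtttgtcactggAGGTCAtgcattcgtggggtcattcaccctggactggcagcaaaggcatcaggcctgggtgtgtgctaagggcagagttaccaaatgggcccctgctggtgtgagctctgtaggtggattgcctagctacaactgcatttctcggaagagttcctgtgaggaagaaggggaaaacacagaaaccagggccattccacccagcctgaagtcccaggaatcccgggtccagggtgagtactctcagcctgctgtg

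Promoters of 9 of the 10 members were listed, and that of Abcc3 was not. The hexamer was found in 7 of these 9, compared with 16.2% of 32544 RefSeq promoters of the same length. It was not found in Slco1a4 and Nr0b2. Slco1a1 held 2 copies, and 1.82% of all promoters held 2 or more. The inverted repeat AGGTCANTGACCT, the usual element of Nr1h4 with its partner receptor, was in 0 of the 9 and in 0.00922% of all promoters. Only exact matches were sought, so imperfect copies were not counted in the members or over all promoters. The copy given next for Abcb11 comes from outside that search and has no share over all promoters beside it. The Abcb11 promoter held the imperfect copy aggccatTGACCT. The sequence TATAAA was in 3 of the 9 (Slco1a1, Slco1b2 and Nr0b2) and in 13.6% of all, and GTTAAT was in 2 (Slco1b2 and Nr1h4) and in 7.13%, each on either strand. The promoter listed for Nr1h4 lies 26927 bases from the start of the gene in the table. These matches describe letters in a short window and no binding was measured.

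The tumors held 18440244 to 27976598 counts each, which puts the level that 3 counts reach at 0.107 to 0.163 CPM, the count scaled to the depth of the tumor. Prmt3 was lower in every Prmt3LKO tumor. It was at 6.60, 8.49 and 10.2 CPM in Prmt3f/f tumors 7, 66 and 71 and at 2.80, 2.03 and 3.82 CPM in Prmt3LKO tumors 92, 93 and 94, a fold of 0.342 (edgeR adjusted p = 0.592, exact permutation p = 0.1, the smallest that 3 against 3 allow). Library Prmt3f/f 7 stood farthest from the others on the first principal component, followed by Prmt3LKO 93. Of 19 hepatocyte markers, 18 were found in the table and tested, 0 passed the test and their summed level was 193950 to 263204 CPM in Prmt3f/f and 218796 to 231456 CPM in Prmt3LKO. All 6 tumors expressed the Y-linked gene Ddx3y (1047 to 1640 counts), with at most 10 counts of Xist. A bulk tumor cannot tell fewer hepatocytes from less RNA per hepatocyte.

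None of the 10 genes passed the test for a difference between genotypes. With a limit of 0.05 on the adjusted p and of 2 or 0.5 on the fold, 0 of 10 members were called, as were 0.00% of all genes tested by the quasi-likelihood test of edgeR. At an unadjusted p under 0.05, 0 members were lower and 0 were higher, where 4.37% of all genes were lower in Prmt3LKO and 2.20% were higher. DESeq2 called 43 genes lower and 9 higher, and the exact test of edgeR 35 lower and 5 higher, with 0 members among them. In 0 members did the ranges of the groups fail to overlap, compared with 12.2% of all genes. Log2 fold changes of Prmt3LKO over Prmt3f/f were above 0 in 7 members and below 0 in 3, with a median of 0.29 over the members and 0.00037 over all genes. The median of the members was -0.02 without Prmt3LKO 94 and 0.64 without Prmt3f/f 71. The same members varied widely from tumor to tumor. Between the lowest and the highest of the 6 tumors the median member differed 3.64-fold and the median gene 1.70-fold. The range was above that of the median gene in 9 of 10 members, and in 10 of 10 it exceeded the difference between genotypes already within Prmt3f/f and within Prmt3LKO alone. The share of all genes for which the latter holds was not counted. Over all genes the median SD of log2 CPM within a group was 0.28, and the median absolute log2 fold change was 0.18.

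**Figure D1:**
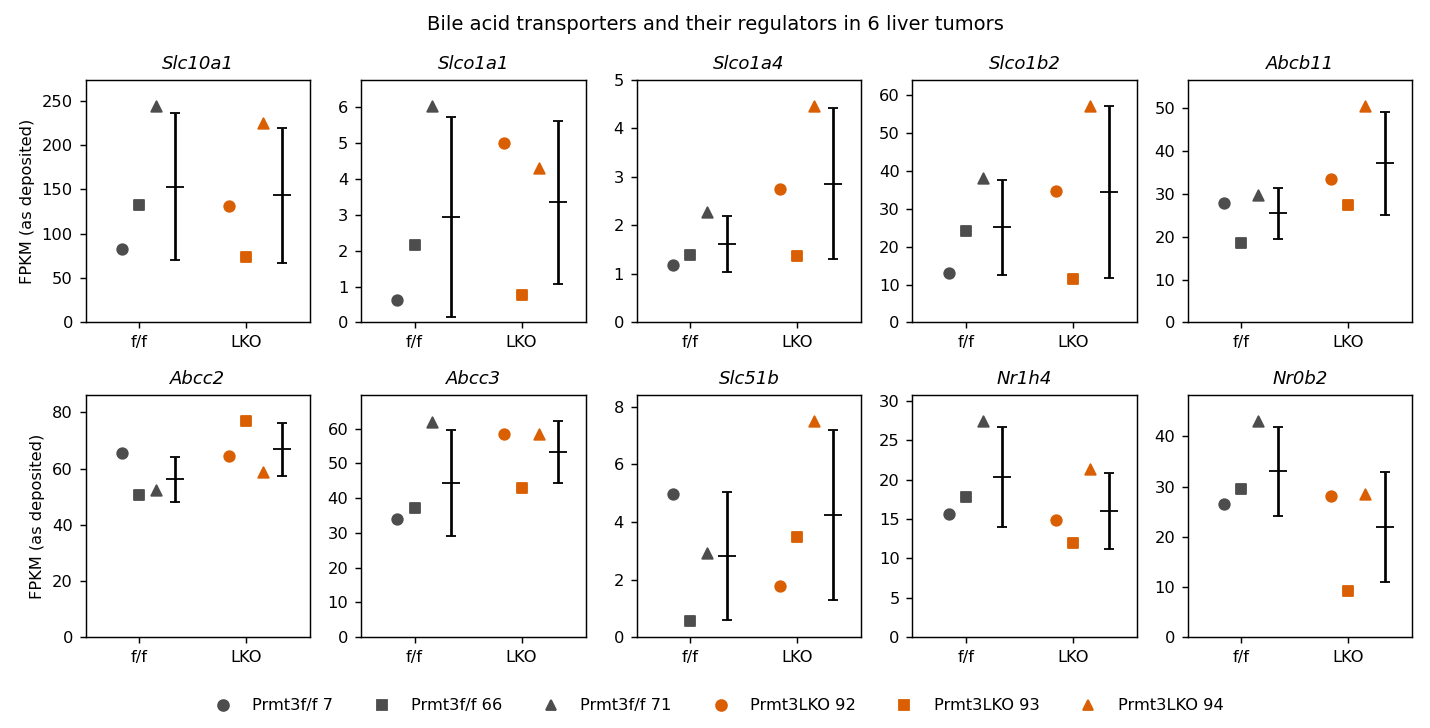
Deposited FPKM (vertical axes, linear from 0, a scale per gene) of the 10 members in 3 Prmt3f/f tumors (grey) and 3 Prmt3LKO tumors (orange), with symbols for replicates and bars for the mean ± SD (n = 3). The groups overlap in every panel, and the spread within a genotype is wide for the uptake carriers and narrow for Abcc2.

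Levels between genes are compared in FPKM, in which counts are divided by gene length and by depth. Slc10a1 was the most abundant member, with a mean of 148.2 FPKM over the 6 tumors. Abcc2 (61.5 FPKM), Abcc3 (48.8 FPKM), Abcb11 (31.3 FPKM), Slco1b2 (29.8 FPKM), Nr0b2 (27.5 FPKM) and Nr1h4 (18.2 FPKM) followed. Slc51b (3.54 FPKM), Slco1a1 (3.14 FPKM) and Slco1a4 (2.24 FPKM) were the least abundant.

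Slc10a1 was the most abundant transcript of the uptake carriers, at a level that did not separate the genotypes. Slc10a1 was at 82.3, 132.4 and 244.4 FPKM in Prmt3f/f tumors 7, 66 and 71 and at 131.8, 73.2 and 225.0 FPKM in Prmt3LKO tumors 92, 93 and 94. The 2 lowest tumors, 93 and 7, and the 2 highest, 71 and 94, each came from both genotypes. Mean levels were 153 ± 83.0 FPKM in Prmt3f/f and 143 ± 76.5 FPKM in Prmt3LKO (SD, n = 3), a fold of 0.959 with a 95% interval of 0.429 to 2.14 (edgeR, log2 -0.06, SE 0.50, adjusted p = 0.996). Its sign rested on single tumors, with a log2 fold change of 0.44 without Prmt3f/f 71, 0.27 without Prmt3LKO 93 and -0.54 without Prmt3LKO 94.

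Slco1b2 (OATP1B2), the main sodium-independent carrier of mouse liver, was low in the same tumors. It was at 13.1, 24.1 and 38.1 FPKM in Prmt3f/f 7, 66 and 71 and at 34.7, 11.5 and 57.1 FPKM in Prmt3LKO 92, 93 and 94. Tumors 93 and 7 were again the lowest, and 94 was the highest. The fold was 1.41 with an interval of 0.544 to 3.64 (edgeR, log2 0.49, SE 0.59, adjusted p = 0.954). The log2 fold change was -0.07 without Prmt3LKO 94, 0.17 without Prmt3f/f 7 and 0.92 without Prmt3LKO 93.

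Slco1a1 (OATP1A1), a carrier with much higher levels in male than in female mouse liver, had the widest spread among the uptake carriers. Its counts were 98, 360 and 1286 in Prmt3f/f 7, 66 and 71 and 700, 123 and 659 in Prmt3LKO 92, 93 and 94. Per length these were 0.612, 2.16 and 6.04 FPKM and 4.99, 0.759 and 4.30 FPKM. Within Prmt3f/f alone the highest tumor stood 9.99-fold above the lowest, and within Prmt3LKO 7.21-fold. The fold between genotypes was 1.18, with an interval of 0.292 to 4.74 (edgeR, log2 0.23, SE 0.86, adjusted p = 0.988). The log2 fold change was -0.25 without Prmt3f/f 7, -0.20 without Prmt3LKO 92 and 1.297 at the highest, when Prmt3f/f 71 was left out.

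Slco1a4 (OATP1A4) had the largest fold among the members, and it did not pass the test. It was at 1.19, 1.38 and 2.28 FPKM in Prmt3f/f 7, 66 and 71 and at 2.74, 1.37 and 4.47 FPKM in Prmt3LKO 92, 93 and 94. Tumors 92 and 94 exceeded every Prmt3f/f tumor, whereas tumor 93 lay below 66. The fold was 1.81 with an interval of 0.892 to 3.67 (edgeR, log2 0.86, SE 0.44, unadjusted p = 0.0887, adjusted p = 0.797). Without Prmt3LKO 93 the log2 fold change was 1.21 (edgeR unadjusted p = 0.00832, adjusted p = 0.786), and without Prmt3f/f 71 it was 1.18 (edgeR unadjusted p = 0.0451, adjusted p = 0.619). Without Prmt3LKO 94 it was 0.39. Slco1a1 and Slco1a4 share 1.08% and 1.03% of their 75-base windows with other genes of the cluster, so few of their reads could have been split between copies.

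Summed over the 4 uptake carriers, tumors held 97.2, 160.0 and 290.9 FPKM in Prmt3f/f 7, 66 and 71 and 174.2, 86.8 and 290.8 FPKM in Prmt3LKO 92, 93 and 94. The means were 183 ± 98.8 and 184 ± 102 FPKM (SD, n = 3), and each genotype held tumors at both ends of the range. Slc10a1 made up 75.7% to 84.6% of this sum. The log2 ratio of the means was 0.0098 with all tumors, and it was -0.29, -0.08 and -0.49 without Prmt3f/f 7, Prmt3f/f 66 and Prmt3LKO 94. The ratio of Slco1a1 to Slco1a4, related carriers from the same cluster, was 0.514, 1.56 and 2.66 in the Prmt3f/f tumors and 1.82, 0.553 and 0.961 in the Prmt3LKO tumors, so that it was below 1 in 7, 93 and 94.

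The canalicular exporters varied less. Abcb11 was at 27.9, 18.5 and 29.7 FPKM in Prmt3f/f 7, 66 and 71 and at 33.4, 27.3 and 50.5 FPKM in Prmt3LKO 92, 93 and 94. Only 93 among the Prmt3LKO tumors lay within the Prmt3f/f range. Mean levels were 25.4 ± 6.01 and 37.1 ± 12.0 FPKM (SD, n = 3), a fold of 1.49 with an interval of 0.950 to 2.35 (edgeR, log2 0.58, SE 0.28, unadjusted p = 0.0749, adjusted p = 0.775). DESeq2 gave the same gene an unadjusted p of 0.0496 and an adjusted p of 0.740. Without Prmt3LKO 93 the log2 fold change was 0.78 (edgeR unadjusted p = 0.0223, adjusted p = 0.786), and without Prmt3LKO 94 it was 0.29. Exons of Abcb11 share 136 bases with the antisense gene Gm13613, and reads of the pair could not be told apart if strand was not used, which the sources used here do not state.

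Abcc2 was the steadiest member. It was at 65.5, 50.8 and 52.4 FPKM in Prmt3f/f 7, 66 and 71 and at 64.6, 77.1 and 58.9 FPKM in Prmt3LKO 92, 93 and 94. Tumor 93, among the lowest for the uptake carriers, was the highest for Abcc2, and tumor 7 the highest of its genotype. The highest tumor stood 1.44-fold above the lowest, a range wider than that of 27.0% of all genes. The fold between genotypes was 1.21 with an interval of 0.894 to 1.63 (edgeR, log2 0.27, SE 0.19, adjusted p = 0.890).

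Added together, Abcb11 and Abcc2 came to 93.4, 69.3 and 82.2 FPKM in Prmt3f/f 7, 66 and 71 and to 98.0, 104.4 and 109.4 FPKM in Prmt3LKO 92, 93 and 94. This was the only role whose sum did not overlap between genotypes, with 81.6 ± 12.1 against 104 ± 5.73 FPKM (SD, n = 3), a log2 ratio of 0.35. Of all single genes tested, 12.2% did not overlap either, and Abcb11 and Abcc2 each overlapped. With FPKM scaled by TMM factors the sums were 90.7, 71.02 and 80.8 against 103.3, 100.3 and 110.9, also without overlap. The sum was not tested, and neither exporter passed the test on its own.

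The ratio of Slc10a1 to Abcb11, the main carriers into and out of the hepatocyte, ranged from 2.68 to 8.22. It was 2.95, 7.14 and 8.22 in Prmt3f/f 7, 66 and 71 and 3.94, 2.68 and 4.45 in Prmt3LKO 92, 93 and 94. Tumors 66 and 71 were above all others.

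The basolateral exporters differed from each other in abundance and in pattern. Abcc3 was at 33.96, 37.3 and 61.8 FPKM in Prmt3f/f 7, 66 and 71 and at 58.5, 43.0 and 58.5 FPKM in Prmt3LKO 92, 93 and 94. Tumor 71 lay with 92 and 94, while 7 and 66 were below every Prmt3LKO tumor. The fold was 1.23 with an interval of 0.787 to 1.92 (edgeR, log2 0.30, SE 0.28, adjusted p = 0.934). Without Prmt3f/f 71 the log2 fold change was 0.61 (edgeR unadjusted p = 0.0409, adjusted p = 0.606), and without Prmt3f/f 7 it was 0.12. The ratio of Abcc3 to Abcc2, which send conjugates to blood and to bile, was 0.518, 0.734 and 1.18 in the Prmt3f/f tumors and 0.905, 0.558 and 0.994 in the Prmt3LKO tumors.

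Slc51b had few reads, with counts of 51, 6 and 40 in Prmt3f/f 7, 66 and 71 and of 16, 36 and 74 in Prmt3LKO 92, 93 and 94. Per length this was 4.97, 0.560 and 2.93 FPKM and 1.78, 3.46 and 7.52 FPKM. The highest tumor stood 13.3-fold above the lowest, the widest range among the members, and the order differed from that of the uptake carriers, with 66 and 92 lowest. The fold was 1.55 with an interval of 0.461 to 5.2003 (edgeR, log2 0.63, SE 0.75, adjusted p = 0.953), and the log2 fold change was -0.08 without Prmt3LKO 94, 0.16 without Prmt3f/f 66 and 1.27 without Prmt3f/f 7. Its partner in the dimer, Slc51a, had 0 counts in all 6 tumors, so by counting error alone its level could be at most 0.107 to 0.163 CPM. Slc51b itself was at 1.35 ± 1.04 CPM in Prmt3f/f and 2.09 ± 1.46 CPM in Prmt3LKO (SD, n = 3). It shares 91 of its 709 exonic bases with Rasl12 on the opposite strand, and the part of those reads in its counts was not tested.

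The nuclear receptors were the members with fold changes below 0 next to Slc10a1. Nr1h4 was at 15.7, 17.8 and 27.5 FPKM in Prmt3f/f 7, 66 and 71 and at 14.9, 11.9 and 21.4 FPKM in Prmt3LKO 92, 93 and 94. Tumor 93 was the lowest and 71 the highest, with 7 and 92 close together. The fold was 0.806 with an interval of 0.506 to 1.28 (edgeR, log2 -0.31, SE 0.29, adjusted p = 0.934). The log2 fold change was -0.04 without Prmt3f/f 71, -0.11 without Prmt3LKO 93 and -0.57 without Prmt3LKO 94.

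Nr0b2 was at 26.5, 29.5 and 43.2 FPKM in Prmt3f/f 7, 66 and 71 and at 28.1, 9.25 and 28.5 FPKM in Prmt3LKO 92, 93 and 94. Tumor 93, with 223 counts against 587 to 1367 in the others, stood well below the rest, and 92 and 94 lay within the Prmt3f/f range. Mean levels were 33.1 ± 8.88 and 22.0 ± 11.01 FPKM (SD, n = 3), a fold of 0.684 with an interval of 0.343 to 1.36 (edgeR, log2 -0.55, SE 0.43, adjusted p = 0.907). Without Prmt3LKO 93 the log2 fold change was -0.16, and without Prmt3f/f 71 it was -0.32. The ratio of Nr0b2 to its inducer Nr1h4 was 1.69, 1.66 and 1.57 in the Prmt3f/f tumors and 1.89, 0.776 and 1.33 in the Prmt3LKO tumors, lowest in 93. Taken relative to the hepatocyte markers of the same tumor, Nr0b2 was lower in all 3 Prmt3LKO tumors, with a log2 difference of -0.82 that was -0.38 without Prmt3LKO 93. The groups of the other 9 members overlapped on this scale, on which 9.63% of all genes did not overlap and 8.45% were lower in all Prmt3LKO tumors.

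**Figure D2:**
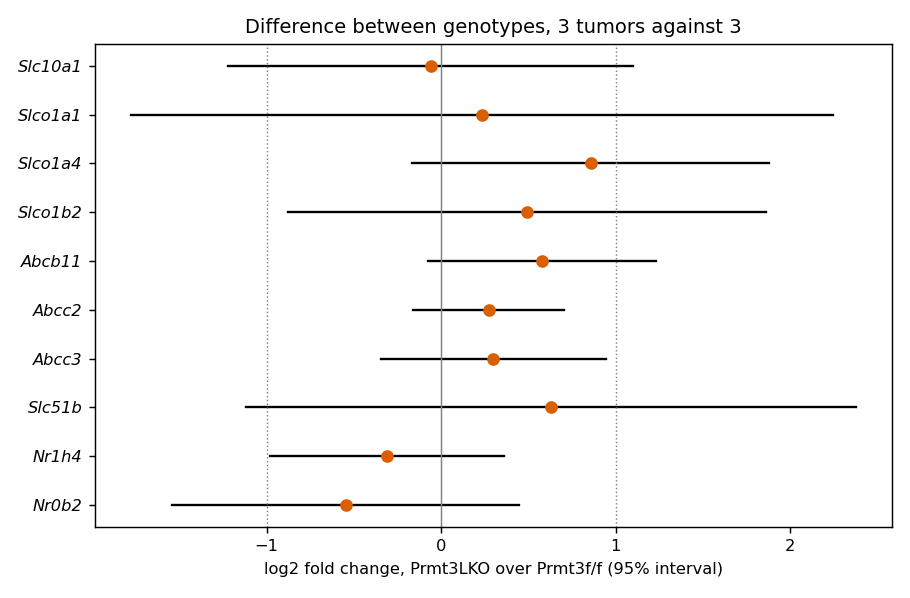
Log2 fold change of Prmt3LKO over Prmt3f/f for each member (points) with its 95% interval from edgeR (lines), with dotted lines at a fold of 2 and 0.5. Every interval includes 0, and those of Slco1a1 and Slc51b are the widest.

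Exact permutation tests over the log2 CPM of the 6 tumors gave p-values between 0.2 for Abcc2 and 0.8 for Slc10a1, Slco1a1 and Slco1b2, where 0.1 is the smallest possible. The precision differed among members. The intervals for Abcc2, Abcc3 and Nr1h4 lay within folds of 0.5 and 2, so a change of 2-fold or more is outside them. Those for Slc10a1, Slco1a1 and Slc51b reached beyond these folds on both sides, those for Slco1a4, Slco1b2 and Abcb11 beyond the upper one only, and that for Nr0b2 beyond the lower one only.

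The largest number of members, 7, shared an order among the Prmt3f/f tumors. Slc10a1, Slco1a1, Slco1a4, Slco1b2, Abcc3, Nr1h4 and Nr0b2 were lowest in 7, intermediate in 66 and highest in 71, an order found in 23.4% of all genes. Among Prmt3LKO tumors, tumor 93 was the lowest for 8 members. Of these, Slc10a1, Slco1a4, Slco1b2, Abcb11 and Nr1h4 were highest in 94 (an order of 18.8% of all genes) and Slco1a1, Abcc3 and Nr0b2 in 92 (15.5% of all genes). Abcc2 and Slc51b followed orders of their own. Tumors 7 and 93 were each among the 2 lowest of the 6 for 7 members, and 71 and 94 were each the highest for 4.

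**Figure D3:**
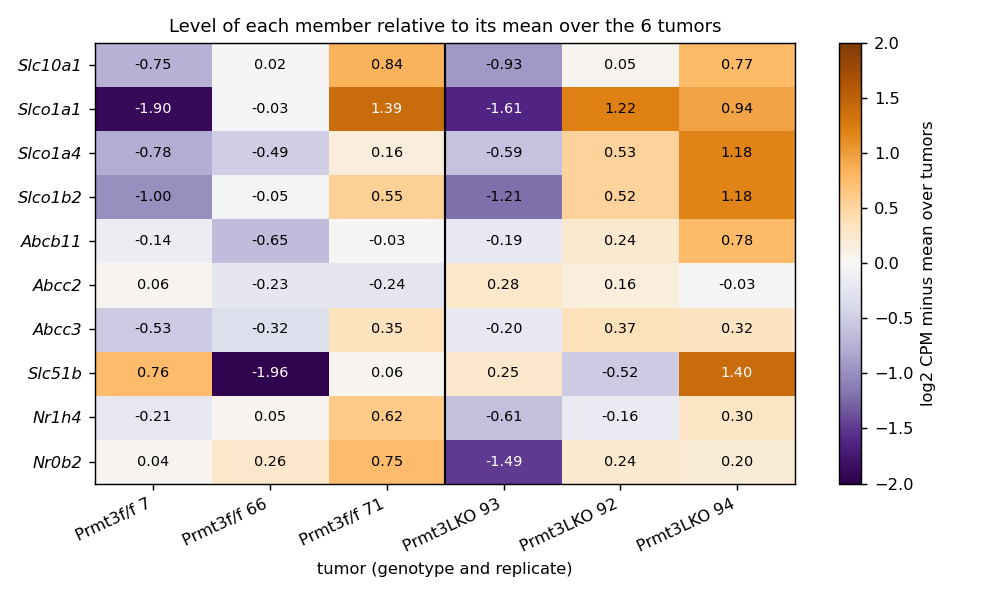
Log2 CPM of each member minus its mean over the 6 tumors (colour and printed value), with Prmt3f/f tumors left and Prmt3LKO tumors right of the line. Tumors 7 and 93 are below the mean for all 4 uptake carriers and 71 and 94 above it, while Abcc2 and Slc51b are above their means in 7 and 93.

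The genes most like a member were found by the root mean square difference of log2 CPM, each centred on its mean over the 6 tumors, a description over 6 points that share library and depth. For Slc10a1 these were Abhd6 (0.0525), Pim3 (0.134) and Ahcy (0.137) among 3722 genes compared. Abhd6, a lipid hydrolase, was at 9.05, 14.1 and 26.9 CPM in Prmt3f/f 7, 66 and 71 and at 14.6, 7.94 and 25.6 CPM in Prmt3LKO 92, 93 and 94, where Slc10a1 was at 133.8, 227.0 and 402.5 CPM and at 232.4, 117.7 and 381.7 CPM. Among the members, Slco1b2 (0.321) and Nr1h4 (0.342) were nearest to Slc10a1 and ranked 103 and 132.

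For Slco1a1 the nearest of 946 genes were Ugt2b38 (0.279), a glucuronosyltransferase, Sult2a8 (0.293), a sulfotransferase that acts on bile acids, and Upp2 (0.321), a uridine phosphorylase. Sult2a8 was at 17.2, 76.6 and 152.3 CPM in Prmt3f/f 7, 66 and 71 and at 97.9, 24.4 and 112.3 CPM in Prmt3LKO 92, 93 and 94. Like Slco1a1, it was lowest in 7 and 93. For Abcb11 the nearest of 6913 genes were Mfsd3 (0.0921), Aldh1a7 (0.0992) and Arhgef16 (0.109), and for Nr0b2 the nearest of 3462 were Ang (0.147), Fam47e (0.174) and Cadm4 (0.204). Aldh1a7, a cytosolic aldehyde dehydrogenase, was at 124.6, 73.9 and 117.2 CPM and at 133.7, 101.8 and 222.8 CPM, lowest in 66 and highest in 94 as Abcb11 was. Ang, a secreted ribonuclease, was at 34.5, 35.1 and 52.1 CPM and at 42.9, 13.0 and 45.0 CPM, with tumor 93 lowest as for Nr0b2.

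Other genes of bile acid handling were read from lists written by hand. Of 18 genes of bile acid synthesis, 18 were tested, 0 were called, 1 was lower and 0 were higher at an unadjusted p under 0.05, with a median log2 fold change of 0.17 (0.0013 without Prmt3LKO 94 and 0.46 without Prmt3LKO 93). The lower gene was Cyp39a1, an oxysterol hydroxylase, at 75.1 ± 26.4 CPM in Prmt3f/f and 41.1 ± 11.4 CPM in Prmt3LKO (SD, n = 3; edgeR, log2 -0.87, unadjusted p = 0.0240, adjusted p = 0.684). The most abundant per length were Scp2, a peroxisomal thiolase and lipid carrier, at 198.5 FPKM (log2 fold change 0.27) and Slc27a2, an acyl-CoA synthetase, at 188.7 FPKM (log2 fold change -0.32). By tumor the list stood at -0.52, -0.07 and 0.48 in Prmt3f/f 7, 66 and 71 and at 0.32, -0.58 and 0.37 in Prmt3LKO 92, 93 and 94, as mean log2 CPM relative to the 6 tumors. The 10 members stood at -0.44, -0.34 and 0.45 and at 0.26, -0.63 and 0.70 on the same scale.

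Among 21 other carriers of bile, organic anions or organic cations, 20 were tested, 0 were called, 2 were lower and 0 were higher at an unadjusted p under 0.05, with a median log2 fold change of 0.16 (-0.03 without Prmt3f/f 7 and 0.27 without Prmt3f/f 71). Abcb1b, a multidrug exporter, was at 3.37, 3.41 and 3.55 CPM in Prmt3f/f 7, 66 and 71 and at 2.29, 1.53 and 1.81 CPM in Prmt3LKO 92, 93 and 94, without overlap (edgeR, log2 -0.88, unadjusted p = 0.0116, adjusted p = 0.620). Slco3a1, a carrier of the same family as the Slco members, was also lower in every Prmt3LKO tumor (edgeR, log2 -0.70, unadjusted p = 0.0184, adjusted p = 0.648). Atp8b1 was higher in every Prmt3LKO tumor, at 49.1 to 51.9 CPM against 38.7 to 46.9 CPM in Prmt3f/f (edgeR, log2 0.21, unadjusted p = 0.149). Of the 20 tested, the groups thus did not overlap in 2 that were lower and 1 that was higher, compared with 12.2% of all genes. Abcg5, a subunit of the canalicular sterol exporter, was at 36.6 FPKM (log2 fold change 0.24).

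Of 23 other regulators of bile acid genes, 22 were tested, 0 were called, 1 was lower and 0 were higher at an unadjusted p under 0.05, with a median log2 fold change of -0.03 (-0.14 without Prmt3f/f 7 and 0.16 without Prmt3f/f 71). Prox1, a corepressor in hepatocytes, was at 90.9 ± 15.6 CPM in Prmt3f/f and 59.3 ± 12.7 CPM in Prmt3LKO (SD, n = 3; edgeR, log2 -0.62, unadjusted p = 0.0186, adjusted p = 0.648). Hnf4a, a master regulator of hepatocyte genes, was at 84.4 FPKM with a log2 fold change of -0.04, and Foxa3 at 49.1 FPKM with 0.09. Among 10 further targets of Nr1h4, 8 were tested and 0 passed in either direction, with a median of 0.13 (0.02 without Prmt3f/f 66 and 0.39 without Prmt3f/f 71), and Slc51a and Fgf15 were at 0 counts in all tumors. Of 15 targets of the xenobiotic receptors Nr1i2 and Nr1i3, 1 was lower and 0 were higher, with a median of 0.38 (-0.18 without Prmt3LKO 94 and 0.73 without Prmt3LKO 93). The lower one was Gadd45b, a stress-response gene (edgeR, log2 -1.02, unadjusted p = 0.0155, adjusted p = 0.648).

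Lists of male-biased, zonal and hepatocyte genes were low in tumors 7 and 93, as the members were. In tumor 71 the members stood at 0.45, the pericentral list at 0.50 and the periportal list at 0.43. These were at 0.26, 0.32 and 0.25 in tumor 92 and at 0.70, 0.33 and 0.38 in tumor 94. In tumor 66 the members stood at -0.34 and the male-biased, zonal and hepatocyte lists between -0.13 and 0.12. That mean of the members included Slc51b at -1.96, on 6 counts, and their median in tumor 66 was -0.14. Of 14 male-biased liver genes outside the members, 0 passed in either direction, and the list stood at -1.01 in 7 and -1.03 in 93, at 0.06 in 66 and 0.17 in 94, and at 1.10 in 71 and 0.72 in 92. The 12 pericentral hepatocyte markers stood at -0.51 in 7 and -0.76 in 93 and at 0.12 to 0.50 in the other tumors, and 12 periportal markers at -0.39 and -0.54 in these tumors and -0.13 to 0.43 in the others. The 18 hepatocyte markers stood at -0.20 and -0.19 in 7 and 93 and between -0.04 and 0.19 in the others. By this mean, tumors 7 and 93 were the lowest in all 4 of these lists. Among the hepatocyte markers the largest falls in both tumors were of Tat and Cps1. Tat was at 355 and 374 CPM in 7 and 93 and at 1271 to 1938 CPM in the others. Cps1 was at 958 and 1156 CPM in 7 and 93 and at 2164 to 3006 CPM in the others. Apoh, Serpinc1 and F2 were also lowest in 7 and 93, whereas Alb, Fgb, Fga, Serpina1a and Serpina1b were lowest in 71. By summed level the hepatocyte markers gave another order, with 230440 and 231456 CPM in 7 and 93 and the lowest level in 71, at 193950 CPM. The part of these lists in the levels of the members was not tested.

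**Figure D4:**
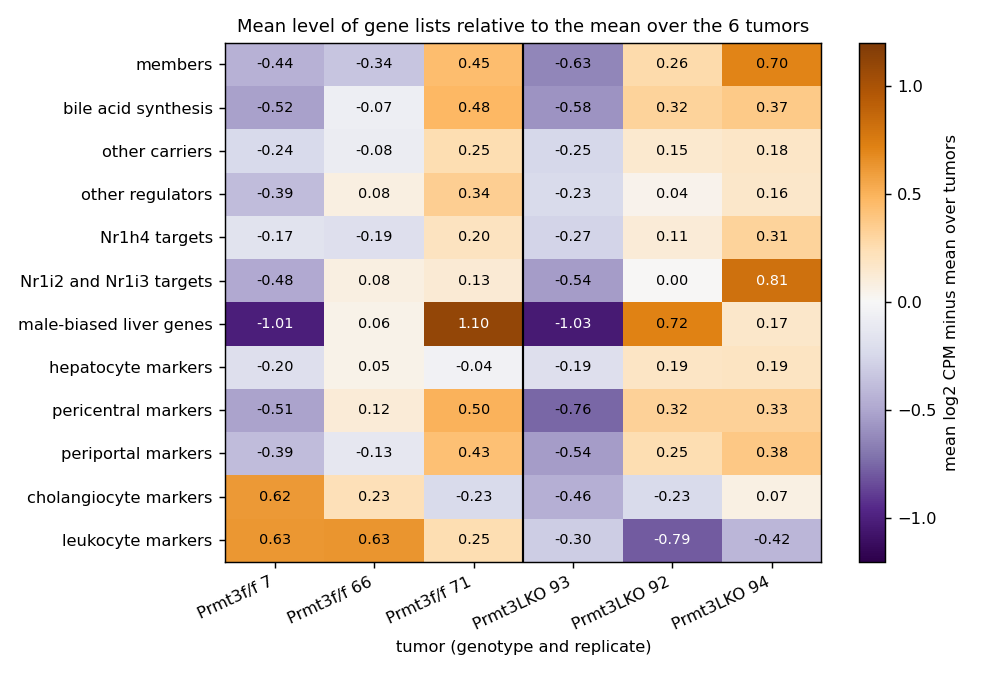
Mean log2 CPM of the members and of 11 gene lists relative to the mean over the 6 tumors (colour and printed value), with Prmt3f/f tumors left and Prmt3LKO tumors right of the line. The members, bile acid synthesis, male-biased genes and both zonal lists are low in 7 and 93, while leukocyte markers are above 0 in all Prmt3f/f tumors and below 0 in all Prmt3LKO tumors.

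Of 14 leukocyte markers, 8 were lower and 0 were higher at an unadjusted p under 0.05, 0 were called, and their summed level was 513.5 to 1069 CPM in Prmt3f/f and 361.6 to 464.4 CPM in Prmt3LKO. Ptprc, the common leukocyte antigen, was at 40.1 ± 0.784 CPM in Prmt3f/f and 22.8 ± 3.38 CPM in Prmt3LKO (SD, n = 3; edgeR, log2 -0.81, adjusted p = 0.592). Of 14 cholangiocyte markers, 11 were tested, 2 were lower and 0 were higher, and their summed level was 455.0 to 4388 CPM in Prmt3f/f and 313.5 to 434.6 CPM in Prmt3LKO. The 4388 CPM came from tumor 7, where Spp1, a secreted phosphoprotein, was at 4075 CPM against 310 to 978 CPM in the other Prmt3f/f tumors and 185 to 339 CPM in Prmt3LKO. Spp1 made up most of this sum in every tumor, so the difference in the sum is largely that of a single gene. Among the 11 cholangiocyte markers tested, the groups did not overlap in 1 that was lower and 2 that were higher in Prmt3LKO, compared with 12.2% of all genes. The part of either cell type in the values of the members was not tested. Of 11 stellate cell and fibroblast markers and of 10 endothelial markers, 0 passed in either direction, with median log2 fold changes of -0.27 and -0.04. The first was 0.07 without Prmt3f/f 66 and -0.55 without Prmt3f/f 71, and the second 0.07 without Prmt3f/f 71 and -0.17 without Prmt3f/f 7. The endothelial list was also lowest in tumors 7 and 93, at -0.27 and -0.18 against 0.03 to 0.19 in the others.

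Slco1a1, Abcc2 and Slc51b are also expressed in kidney, and Slc51b in intestine. Of 22 kidney markers, 6 were tested, of which 3 were higher and 1 lower in Prmt3LKO at an unadjusted p under 0.05 and 0 were called. Slc34a1, a phosphate carrier of the proximal tubule, was at 0.116 ± 0.0398 CPM in Prmt3f/f and 1.33 ± 0.917 CPM in Prmt3LKO, and Kap at 2.79 ± 0.415 and 7.10 ± 1.26 CPM (SD, n = 3). Summed over all 22, the level was 26.1 to 28.0 CPM in Prmt3f/f and 25.7 to 37.9 CPM in Prmt3LKO, and the groups overlapped. The 19 markers that averaged less than 1 CPM across tumors summed to 26, 54 and 63 counts in Prmt3f/f 7, 66 and 71 and to 117, 150 and 113 counts in Prmt3LKO 92, 93 and 94. This limit was not planned. It left out Kap, higher in every Prmt3LKO tumor, Napsa, lower in every Prmt3LKO tumor, and Slc13a3, whose groups overlapped. In tumor 93 the sum over these 19 genes exceeded the 123 counts of the single gene Slco1a1. In every Prmt3LKO tumor it exceeded the counts of the single gene Slc51b (16, 36 and 74). It also exceeded those of Slc51b in Prmt3f/f 66 (54 against 6) and 71 (63 against 40), but not in Prmt3f/f 7 (26 against 51). Among 9 intestine markers, Fabp6, Alpi, Sis, Muc2, Cdx1 and Cdx2 were at 0 in all tumors. Vil1, a villus protein, was the 1 of 2 tested that was higher at an unadjusted p under 0.05 (edgeR, log2 2.194, adjusted p = 0.646), and its groups overlapped. The part of kidney RNA in the values of Slco1a1, Abcc2 and Slc51b was not tested.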

How the data were processed

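RNA-seq was performed on mRNA of 6 liver tumors, and reads were sequenced as pairs. The submitters' processing notes name bcl2fastq 2.19, HISAT2 2.0.4 and StringTie 1.3.0 with the build GRCm38, and use of strand in counting is not given in the sources used here. The authors deposited a table of whole-number counts that they did not normalize and of FPKM, in which the authors divided counts by gene length and total count. All 12 value columns belong to these tumors, 0 were left unused, and 1013830 empty rows were dropped. Samples were grouped by the genotype in their labels.

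Counts were filtered with filterByExpr (minimum count 10, minimum total 15), scaled by TMM and tested in edgeR 4.0.16 (R 4.3.3) by its quasi-likelihood test over all 13892 genes left, and p-values were adjusted by the Benjamini-Hochberg method. CPM of single genes used TMM-scaled library sizes, sums over marker lists used total counts, and log2 CPM used a prior count of 2. FPKM were used to compare levels between genes. Single genes were also compared by exact two-sided permutation tests, computed with scipy 1.17.1. Floors, taken as 3 counts, cover counting error only.

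The members and lists were chosen with earlier results of these data known, so no list is independent evidence. Named genes were the 10 members and Prmt3, from the 3 lists of bile acid genes those called, those at an unadjusted p under 0.05 (at most 4 a list) and the 2 with the highest FPKM, from other lists at most 2 at an unadjusted p under 0.05, and for 4 members the 3 genes most like them. Genes at 0 counts were named in addition, after their values were seen, as were Xist, Ddx3y, Atp8b1, single hepatocyte markers and the kidney markers left out of a sum. Some results of the lists are not reported here. Alternatives were DESeq2 1.42.0, limma-voom 3.58.1, the exact test of edgeR, no TMM scaling, 2 other filters, FPKM on log2 scales with pseudocounts of 1 and 0.1, levels relative to hepatocyte markers, and leaving out each tumor. The median member and the hepatocyte-relative Nr0b2 without each tumor were added after seeing the data, as was the sum of kidney markers under 1 CPM. The steps across genes were tested on simulated data.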

Additional observations from a re-analysis of the deposited data

How the results depend on the processing

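No member passed an adjusted p under 0.05 under any alternative run, the smallest being 0.606 for Abcc3 without Prmt3f/f 71. Over 150 alternative values of the 10 members, 6 changed sign, all on leaving out a tumor: Slc10a1 at 0.44 without Prmt3f/f 71 and 0.27 without Prmt3LKO 93 (range -0.54 to 0.44), Slco1a1 at -0.25 without Prmt3f/f 7 and -0.20 without Prmt3LKO 92 (range -0.25 to 1.297), Slco1b2 at -0.069 without Prmt3LKO 94 (range -0.069 to 0.92) and Slc51b at -0.077 without Prmt3LKO 94 (range -0.077 to 1.27). The other 6 members kept their sign. Members higher at an unadjusted p under 0.05 numbered 0 in the quasi-likelihood test of edgeR, 1 with DESeq2 (Abcb11) and 0 to 2 on leaving out a tumor (Slco1a4 and Abcc3 without Prmt3f/f 71, Slco1a4 and Abcb11 without Prmt3LKO 93). The log2 ratio of the uptake sum ranged from -0.49 to 0.52 on leaving out a tumor, and was -0.29 without Prmt3f/f 7, -0.077 without Prmt3f/f 66 and -0.49 without Prmt3LKO 94. Over all genes, 0 were called by the quasi-likelihood test, where 607 were lower and 305 higher at an unadjusted p under 0.05. DESeq2 called 43 lower and 9 higher, the exact test of edgeR called 35 lower and 5 higher, and the quasi-likelihood test with no filter called 2 lower. Limma-voom called 0 in each direction. The cause of these differences between tests was not tested. Prmt3 passed in DESeq2 (adjusted p = 0.00357) and in the exact test (adjusted p = 0.00735). No paired analysis was possible because the groups share no replicate number. With 3 tumors a group, the wide intervals of Slco1a1 and Slc51b limit what can be seen, and Slc51b has at most 74 counts.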
